A study of Mus musculus with 4 samples.

Results

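Transcript levels of 7 mouse genes of meiotic break formation and of the HORMA domain axis system were measured in pachytene spermatocytes, the germ cells that have paired their chromosomes in meiotic prophase. The genes were *Spo11*, *Mei1*, *Mei4*, *Rec114*, *Hormad1*, *Hormad2* and *Trip13*. They were chosen by name, as the rows carrying these symbols among the 23420 genes of the table. Of the 7, 6 were found under these names, and *Rec114* was found under 2410076I21Rik, which RefSeq lists as its older symbol.

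The cells came from the testes of wild-type (WT) C57BL/6 (B6) males of 23 weeks of age, were isolated by FACS with a DNA-binding dye, and were cultured for 24 h with DMSO (Ctrl) or with 10 µM AZ20, which inhibits the ATR kinase. A library was made from 15000 cells, and each group had 2. According to the methods of the study, cells of a mouse were divided between AZ20 and Ctrl. Libraries with the same replicate number were therefore taken as pairs, although the sample titles do not name the mouse. The test had no term for the pairs, and differences within them are given as descriptions. All 4 libraries therefore shared the genotype, the sort and the culture, the cells had no direct contact with Sertoli cells, and no library of uncultured cells is analysed here. The culture temperature is 32 °C in the methods and 34 °C in the sample labels. The comparison asks whether RNA levels of these genes differed once ATR was inhibited in cells already in pachytene.

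Meiotic recombination begins with programmed DNA double-strand breaks. SPO11 is the topoisomerase-like enzyme that cuts the DNA, and REC114, MEI4 and MEI1 are accessory proteins without which mouse meiocytes make few or no breaks. HORMAD1 and HORMAD2 are HORMA domain proteins that coat chromosome axes. HORMAD1 is needed for normal numbers of breaks, and both recruit ATR to axes that have not synapsed, such as those of the X and Y chromosomes in males. TRIP13 is the AAA+ ATPase that remodels HORMA domain proteins and removes both HORMADs from axes once synapsis has taken place.

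Values are TPM (transcripts per 1000000), which are scaled to the length of a gene, so levels of different genes can be set side by side. Read totals over genes, as recovered from the TPM, were 13972502 and 15853346 for Ctrl and 20251789 and 18543013 for AZ20. The 10 pachytene markers summed to 10062 to 10331 TPM in Ctrl and 10146 to 10414 in AZ20. The largest parts were *Ldhc* (5216 to 6178 TPM), *Sycp3* (2061 to 2924 TPM) and *Hspa2* (883 to 1390 TPM). The sums therefore do not show that each marker was stable. RNA of *Hist1h1t*, the testis-specific linker histone of mid pachytene, was at 0 to 1.52 TPM. The paper checked the purity of the sorted cells by staining for SYCP3, γH2AX and the H1T protein. Round spermatid markers were present in every library, with all 8 above 1 TPM, and summed to 370 and 153 TPM in Ctrl and to 782 and 257 TPM in AZ20 in replicates 1 and 2. The defining Sertoli genes *Sox9* and *Wt1* and the Leydig genes *Cyp11a1*, *Cyp17a1*, *Hsd3b1* and *Insl3* were at 0 in all 4 libraries, as were *Cd163* and *C1qa* of macrophages and *Dmrt1* and *Sohlh1* of spermatogonia. Other members of the same lists were detected. Spermatogonial *Uchl1* was at 7.60 to 20.1 TPM and *Sohlh2* at 2.66 to 6.56 TPM. Leydig *Star* was at 0.866 to 2.31 TPM, macrophage *Cd68* at 0.0860 to 1.28 TPM and Sertoli *Cldn11* at 0.0463 to 0.651 TPM. The summed markers lay between 0.0529 and 0.651 TPM for Sertoli cells, 0.866 and 2.31 for Leydig cells, 0.0860 and 1.34 for macrophages, 2.18 and 4.60 for peritubular myoid cells, and 11.1 and 23.9 for spermatogonia. In bulk RNA, fewer cells of a type and less RNA per cell cannot be told apart.

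The 7 genes spanned the range from some of the most abundant transcripts of the cell to nothing measurable. In every library the order was *Hormad1*, *Spo11*, *Hormad2*, *Rec114*, *Trip13*, *Mei1* and *Mei4*, from high to low. The 2 lowest are both break-formation genes, and the highest codes for an axis protein. The ranges over the 4 libraries were apart for all neighbours in this order except *Rec114* and *Trip13* (9.41 to 15.1 and 8.01 to 9.62 TPM). Between its lowest and its highest library, *Spo11* differed by 1.197 times, *Trip13* by 1.201 times, *Hormad1* and *Hormad2* by 1.44 times, *Rec114* by 1.61 times and *Mei1* by 3.79 times. These levels are a description and carry no test.

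**Figure D1:**
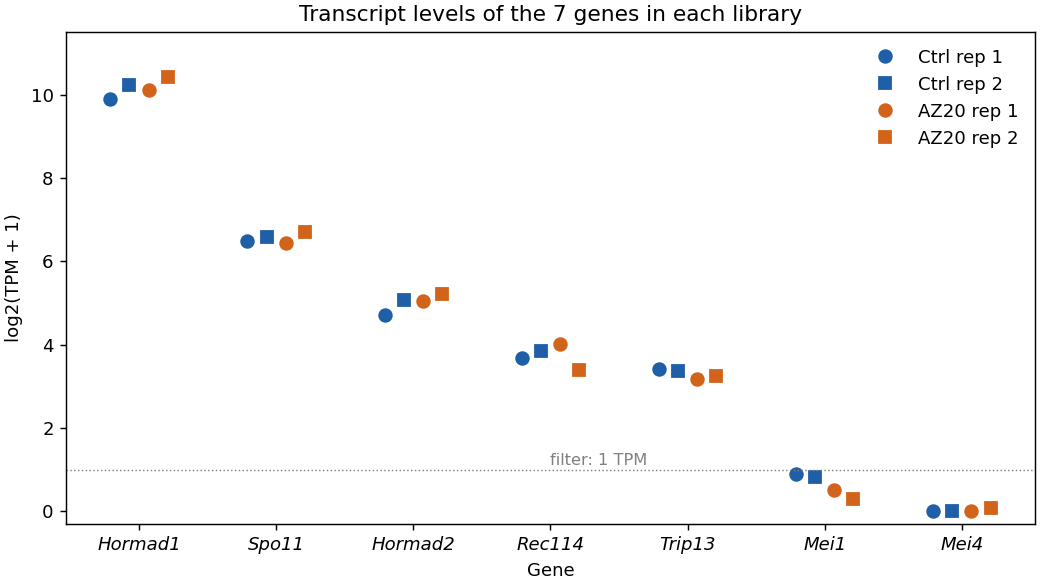
Transcript level of each of the 7 genes, as log2(TPM + 1), in the 2 Ctrl libraries (blue) and the 2 AZ20 libraries (orange), with circles for replicate 1 and squares for replicate 2. The libraries of *Hormad1*, *Spo11* and *Hormad2* form separate bands, those of *Rec114* and *Trip13* overlap, and *Mei1* and *Mei4* lie under the line at 1 TPM that a group mean had to pass to be tested.

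Promoter sequences were looked up because these genes, all of them meiotic, differed so widely in level. RefSeq (GRCm38.p6) gave a promoter window, 250 bases before to 50 bases after the transcription start, for 6 of the 7 genes, and *Spo11* had no entry. The windows printed, of the highest member and 2 lower ones, are those that held a motif match. The RefSeq starts of *Rec114* (58741559) and *Mei1* (82082476) lie well inside the gene spans given for them below. Each window is printed on the strand of its gene. Capitals mark matches, on either strand, to 3 motifs: GCGGGAA (E2F), CACGTG (E-box) and TAACNG (MYB).

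Hormad1, chr3:95559427-95559726, plus strand: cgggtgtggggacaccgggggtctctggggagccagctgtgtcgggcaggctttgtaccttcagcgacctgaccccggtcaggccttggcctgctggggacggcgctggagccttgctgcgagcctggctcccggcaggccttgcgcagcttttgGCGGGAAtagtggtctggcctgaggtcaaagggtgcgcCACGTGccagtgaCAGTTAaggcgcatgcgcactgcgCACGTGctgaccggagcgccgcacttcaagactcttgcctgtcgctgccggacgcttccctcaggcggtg
Rec114, chr9:58741510-58741809, minus strand: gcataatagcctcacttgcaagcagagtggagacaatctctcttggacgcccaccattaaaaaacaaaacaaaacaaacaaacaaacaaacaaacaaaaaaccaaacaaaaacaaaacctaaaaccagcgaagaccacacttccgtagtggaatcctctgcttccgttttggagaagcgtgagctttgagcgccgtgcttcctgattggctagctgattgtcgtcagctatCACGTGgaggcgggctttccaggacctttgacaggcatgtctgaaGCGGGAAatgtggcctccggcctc
Mei4, chr9:81863420-81863719, plus strand: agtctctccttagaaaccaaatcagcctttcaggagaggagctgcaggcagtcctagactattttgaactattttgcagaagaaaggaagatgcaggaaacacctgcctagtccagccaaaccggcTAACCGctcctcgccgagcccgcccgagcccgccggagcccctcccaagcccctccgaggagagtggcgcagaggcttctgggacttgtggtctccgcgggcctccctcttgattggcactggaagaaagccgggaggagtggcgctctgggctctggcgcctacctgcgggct

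The *Hormad1* window held a match to each of the 3 motifs, 2 of them to the E-box, and none of these matches overlapped another. The *Rec114* window held 1 E2F and 1 E-box match, and the *Mei4* window held 1 MYB match. The windows of *Mei1*, *Hormad2* and *Trip13* held none. Among 32851 promoters of the same length, 4.60% held the E2F letters, 7.15% the E-box and 23.3% the MYB letters. GC content was 67.3% for *Hormad1*, 60.7% for *Mei4* and 47.7% for *Rec114*, and so did not follow the order of the levels. A match is only an occurrence of these letters, and no binding was measured.

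No difference between AZ20 and Ctrl passed the test for the genes of this group that could be tested. Of the 7, 5 passed the filter of a mean above 1 TPM in either group, and 0 of these 5 were called at a change of at least 2-fold with an adjusted p under 0.05 (limma on log2(TPM + 1)). Over all 10316 genes tested the share called was 2.33%, and over the 9931 autosomal genes it was 0.151%. All 7 genes are autosomal. At an unadjusted p under 0.05, 0 of the 5 passed, beside 9.16% of all genes tested. The median change of the 5 was 0.04 on the log2 scale, beside 0.07 over all genes tested and 0.06 over autosomal genes. For comparison, 63.3% of the 341 X-linked genes tested were called higher, with a median change of 2.61 among X-linked genes. The 95% interval of the change lay within a 2-fold difference in either direction for all 5, as it did for 63.0% of all genes tested. An exact permutation test of 2 libraries against 2 cannot give a 2-sided p below 0.333, and was therefore not used for single genes.

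**Figure D2:**
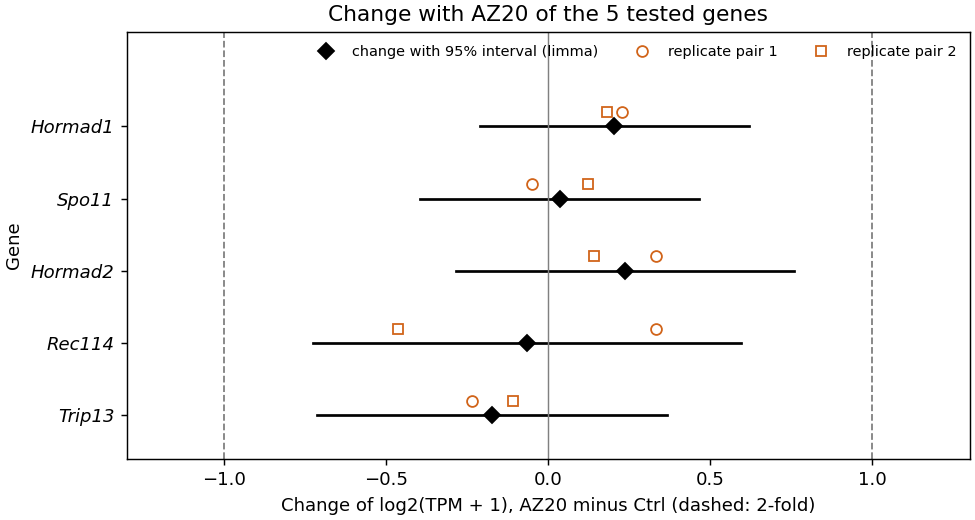
Change with AZ20 (AZ20 minus Ctrl) on the log2(TPM + 1) scale for the 5 tested genes. Diamonds and bars are the limma estimate with its 95% interval, open circles and squares are the differences within replicate pairs 1 and 2, and dashed lines mark a 2-fold change. All 5 intervals cross 0 and none reaches 2-fold, and the pairs of *Rec114* and of *Spo11* lie on opposite sides of 0.

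*Spo11* (ENSMUSG00000005883.15, GRCm38 chr2:172977700-172993576, plus strand), the gene of the catalytic subunit, stood at 89.2 and 94.6 TPM in Ctrl and at 86.1 and 103 TPM in AZ20. Both Ctrl libraries thus lay between the AZ20 libraries, and the differences within replicate pairs 1 and 2, -0.05 and 0.12 on the log2(TPM + 1) scale, had opposite signs. Behind these values were 1580, 1916, 2197 and 2373 reads. The group means were 91.9 ± 3.83 and 94.6 ± 11.98 TPM (SD, n = 2 each), and 6.24% to 7.21% of the genes in the table were higher. The change was 0.04 on the log2(TPM + 1) scale with an SE of 0.18 and a 95% interval from -0.40 to 0.47 (limma, adjusted p = 0.980). SPO11 breaks are made in leptotene and zygotene, before the stage sorted here, yet its RNA was the second most abundant of the 7. *Spo11* has 5 annotated transcripts and is known for splice forms that differ between early and later prophase, which a value for the whole gene cannot separate.

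*Rec114* (ENSMUSG00000074269.10, chr9:58652850-58743964, minus strand) was measured at 11.8 and 13.4 TPM in Ctrl and at 15.1 and 9.41 TPM in AZ20. The AZ20 libraries were the highest and the lowest of the 4. Within replicate pair 1 its level was higher with AZ20 by 0.33 on the log2(TPM + 1) scale, and within pair 2 the difference was -0.46. The reads were 105, 136, 194 and 109. The means were 12.6 ± 1.11 and 12.3 ± 4.03 TPM (SD, n = 2 each), and the change was -0.07 with an SE of 0.28 (95% interval -0.73 to 0.60, adjusted p = 0.975). Of its 1277 annotated exon bases, 344 are shared with *Nptn* on the opposite strand. Its TPM rests on the 883 bases of its RefSeq transcripts, of which 338 are shared. As the library kit does not mark strand, reads there cannot be assigned to either gene. *Nptn* itself stood at 1.38 TPM at most.

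*Mei1* (ENSMUSG00000068117.10, chr15:82069996-82126814, plus strand), whose product is needed for break formation, was low, under 1 TPM in every library. It was measured at 0.869 and 0.782 TPM in Ctrl, and at 0.414 and 0.229 TPM in AZ20. Both AZ20 libraries were below both Ctrl libraries, as in 9.87% of all 16857 genes above 0. These levels rest on 35, 36, 24 and 12 reads, with 95% Poisson intervals, which cover counting error only, of 0.605 to 1.21 and 0.548 to 1.08 TPM in Ctrl and 0.265 to 0.615 and 0.118 to 0.400 TPM in AZ20. The intervals were apart in replicate pair 2 and touched in pair 1. The ratio of the group means, 0.321 ± 0.130 over 0.826 ± 0.0616 TPM (SD, n = 2 each), was 0.389.

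Since neither group mean of *Mei1* passed 1 TPM, it was not part of the test. When the filter was dropped, its difference was -0.47 on the log2(TPM + 1) scale with an SE of 0.17. Its unadjusted p was 0.0418 and did not hold after adjustment over all genes (limma, adjusted p = 0.635), and 1.22% of the genes in that fit were lower at the same unadjusted threshold. When limma-voom, which weights genes by their counts, was run on the recovered reads of every gene above 0, an alternative chosen after seeing the data, the difference was -1.40 on the log2 scale of reads relative to library size, with an SE of 0.82 (adjusted p = 0.796). A difference in *Mei1* was therefore not established at this depth, and the voom interval, from -3.16 to 0.35, includes a fall of well over 2-fold as well as no change.

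*Mei4* (ENSMUSG00000043289.12, chr9:81863670-82206007, plus strand), the partner of REC114 in the axis-bound complex, was at 0 TPM in both Ctrl libraries and in replicate 1 of AZ20. In replicate 2 of AZ20 it stood at 0.0498 TPM, from 2 reads. A count of 0 allows up to 3 reads, which correspond to 0.0971, 0.0850 and 0.0674 TPM in the libraries at 0. All 4 values lay at or under this limit, so no fold is given. *Spo11* and *Mei4*, which act in the same reaction, thus differed from 86.1 TPM or more to 0.0498 TPM or less.

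**Figure D3:**
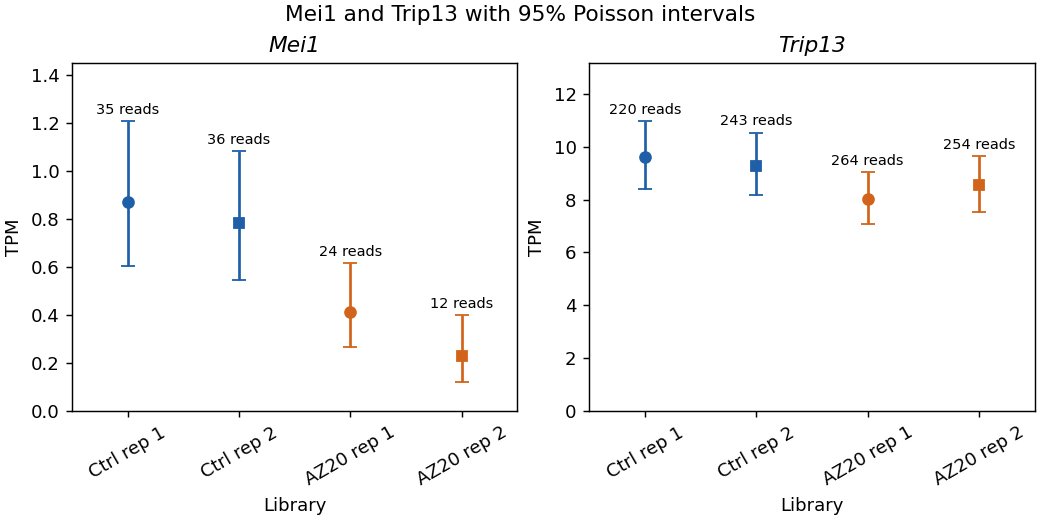
TPM of *Mei1* (left) and *Trip13* (right) in each library, with 95% Poisson intervals of the reads and the read counts above them. Both genes were lower in both AZ20 libraries than in both Ctrl libraries, as were 9.87% of genes above 0 and 11.7% of genes tested. The reads were 12 to 36 for *Mei1* and 220 to 264 for *Trip13*. The intervals of *Trip13* overlap, and those of *Mei1* are apart in replicate pair 2.

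*Hormad1* (ENSMUSG00000028109.14, chr3:95559677-95587671, plus strand) was the most abundant member, at 951 and 1208 TPM in Ctrl and 1113 and 1369 TPM in AZ20. It ranked between place 122 and place 218 among all genes of a library. Both AZ20 values exceeded the Ctrl value of the same replicate, by 1.17 and 1.13 times, but the groups overlapped. Replicate 2 was above replicate 1 by more than this, 1.27 times in Ctrl and 1.23 times in AZ20. With means of 1079 ± 182 and 1241 ± 181 TPM (SD, n = 2 each) and 14497 to 27135 reads, the change was 0.20 on the log2(TPM + 1) scale with an SE of 0.17 (95% interval -0.21 to 0.62, adjusted p = 0.826).

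*Hormad2* (ENSMUSG00000020419.11, chr11:4345814-4441105, minus strand) was measured at 25.2 and 32.7 TPM in Ctrl and at 31.96 and 36.2 TPM in AZ20, from 341, 507, 624 and 638 reads. The groups overlapped, and again AZ20 was above Ctrl within both pairs, 1.27 and 1.11 times. Its change of 0.24 was the largest in size of the 5 tested genes in this fit (SE 0.22, 95% interval -0.28 to 0.76, adjusted p = 0.833), with means of 28.9 ± 5.35 and 34.1 ± 3.002 TPM (SD, n = 2 each). That rank did not hold under every alternative, as the change of *Trip13* was larger in size with quantile normalization (-0.38 against 0.13) and that of *Rec114* without AZ20 replicate 1 (-0.38 against 0.32). Of autosomal genes, 69.8% had a lower change than *Hormad2*. The 3 tested genes whose centred log2(TPM + 1) values over the 4 libraries lay nearest to those of *Hormad2* were *Fgfrl1*, *Bdp1* and *Ppid*, at Euclidean distances of 0.0213, 0.0218 and 0.0310.

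The 2 HORMAD genes differed greatly in level and little in their ratio. *Hormad1* exceeded *Hormad2* by 37.8 and 36.9 times in Ctrl and by 34.8 and 37.8 times in AZ20, a spread of 1.09 between the highest and the lowest ratio. Each of the genes alone spread by 1.44 times over the same libraries. The ratio of *Hormad1* to *Sycp3*, the gene of the main lateral element protein, was 0.461 and 0.498 in Ctrl and 0.434 and 0.468 in AZ20, where *Sycp3* alone spread by 1.42 times. Round spermatid markers ran the other way between replicates, summing to more in replicate 1 than in replicate 2 in both groups. Their part in the replicate difference of the HORMAD genes was not tested. The ratio of *Hormad1* to *Spo11* ran from 10.7 to 13.3, a spread of 1.25. That of *Spo11* to *Rec114* ran from 5.70 to 10.95, where *Rec114* alone spread by 1.61 times. How many other gene pairs had as narrow a ratio as the HORMAD genes was not examined. These ratios are descriptions over 4 libraries, whose values share the scaling of their library.

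**Figure D4:**
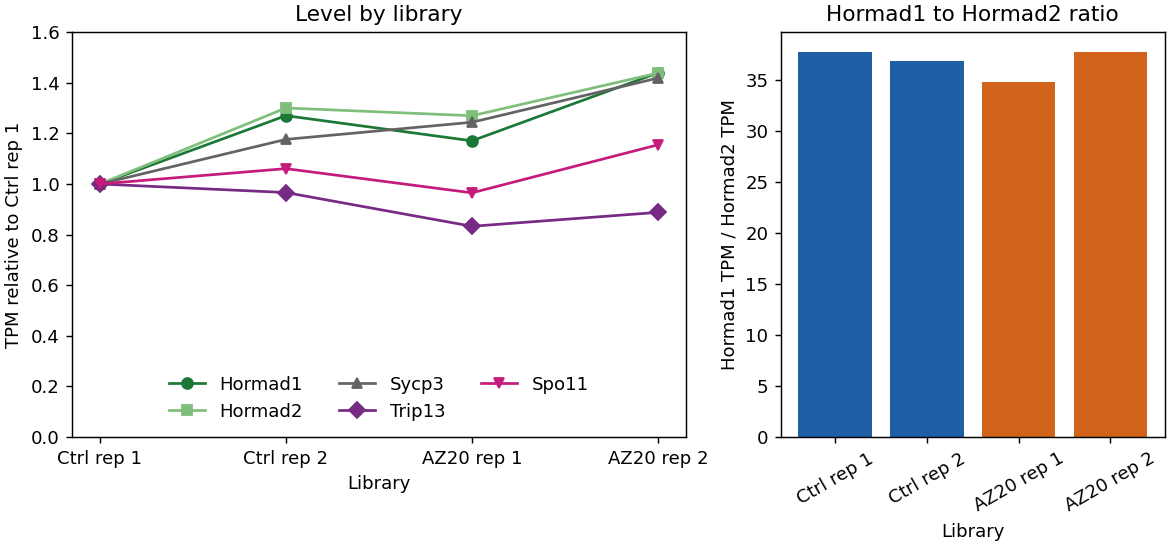
Left, TPM of 5 genes in each library relative to Ctrl replicate 1. Right, the ratio of *Hormad1* TPM to *Hormad2* TPM in each library. *Hormad1*, *Hormad2* and *Sycp3* lie close together on the left, up to 1.44, 1.44 and 1.42 in AZ20 replicate 2, and the ratio stays between 34.8 and 37.8.

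*Trip13* (ENSMUSG00000021569.10, chr13:73911347-73937784, minus strand), the remodeller of both HORMADs, stood at 9.62 and 9.29 TPM in Ctrl and at 8.01 and 8.54 TPM in AZ20. The groups did not overlap, and *Trip13* was the only one of the 5 tested genes for which this held. It was lower in both AZ20 libraries, as were 11.7% of all genes tested. A further 26.4% of all genes tested were higher in both AZ20 libraries, so groups without overlap were common. The difference was small, with means of 9.46 ± 0.230 and 8.27 ± 0.374 TPM (SD, n = 2 each) and a ratio of 0.875, or 0.833 and 0.919 within pairs 1 and 2. The change was -0.17 on the log2(TPM + 1) scale with an SE of 0.23 (95% interval -0.71 to 0.37, adjusted p = 0.892). The reads, 220, 243, 264 and 254, give Poisson intervals of 8.39 to 10.98 and 8.16 to 10.5 TPM in Ctrl and 7.07 to 9.04 and 7.52 to 9.66 TPM in AZ20, which overlap. *Hormad1* exceeded its remodeller by 98.9 and 130 times in Ctrl and by 139 and 160 times in AZ20. *Hormad2* exceeded it by 2.62 and 3.52 times in Ctrl and by 3.99 and 4.24 times in AZ20. Both ratios have the lower *Trip13* values of AZ20 as their denominator, so they are no separate observation.

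The other genes of the pathway were taken from 5 lists of 31 genes, of which 27 were tested. The test called 0 of these 27, beside 2.33% of all genes tested and 0.151% of autosomal genes. An unadjusted p under 0.05 was reached by 1 of the 27, beside 9.16% of all genes tested. The median change of the 27 was 0.01, beside 0.07 over all genes tested, with 16 changes above 0 and 11 below. *Ankrd31* is not analysed here, and *Prdm9*, *Rec8* and *Rad21l* did not pass the filter.

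Among the partners in break formation and placement, 6 of 8 were tested and 0 were called (median change 0.07). Their changes ran from -0.24 for *Zcwpw1*, a reader of the histone marks that PRDM9 sets (12.9 to 10.8 TPM between group means), to 0.45 for *Gm960* (3.23 to 4.74 TPM), which codes for TOP6BL, the partner subunit of SPO11. *Gm960* was at 2.89 and 3.56 TPM in Ctrl and at 4.83 and 4.65 TPM in AZ20 (adjusted p = 0.722). *Gm960* values did not overlap between the groups, as in 26.4% of all genes tested in that direction.

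The other HORMA domain genes and the TRIP13 adaptor *Mad2l1bp* were all tested, 5 of 5, and 0 were called (median change 0.02). *Mad2l2*, a subunit of the shieldin and polymerase zeta complexes, had the lowest change, -0.13, and stood at 829 and 919 TPM in Ctrl and at 957 and 667 TPM in AZ20. Its level was thus of the order of that of *Hormad1*, and the AZ20 libraries lay on both sides of the Ctrl libraries. The highest change was 0.57 for *Atg101*, an autophagy gene listed under 9430023L20Rik (10.00 to 15.5 TPM, adjusted p = 0.671).

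Of the axis and cohesin genes, 5 of 7 were tested and 0 were called (median change 0.05). They ran from -0.07 for *Smc1b*, the meiotic SMC1 subunit (231 to 220 TPM), to 0.64 for *Smc3* (3.24 to 5.85 TPM, adjusted p = 0.677). Of the end processing genes, 5 of 5 were tested and 0 were called. Their median change was -0.24, with 4 of the 5 changes below 0, from -0.26 for *Nbn* to 0.00 for *Rbbp8*, the gene of CtIP. No end processing gene had an unadjusted p under 0.05.

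Of the 6 listed genes of ATR signalling at unsynapsed axes and in the chromatin around them, all were tested and 0 were called (median change 0.11). The list holds genes that act before ATR or with it, and also *H2afx* and *Mdc1*, which the paper places after it. *Topbp1*, which codes for an activator of ATR, stood at 15.8 and 16.3 TPM in Ctrl and at 21.0 and 29.8 TPM in AZ20. Both AZ20 libraries exceeded both Ctrl libraries, as in 26.4% of all genes tested. In this list the same held for *Mdc1*, while *Atrip* was lower in both AZ20 libraries than in both Ctrl libraries. *Topbp1* changed by 0.61 with an SE of 0.24. Its unadjusted p of 0.0398 did not hold after adjustment over all genes (limma, adjusted p = 0.506). At that unadjusted threshold, 8.03% of all genes tested were higher. The lowest change was -0.50 for *Atrip*, the obligate partner of ATR (8.54 to 5.69 TPM, adjusted p = 0.685).

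**Figure D5:**
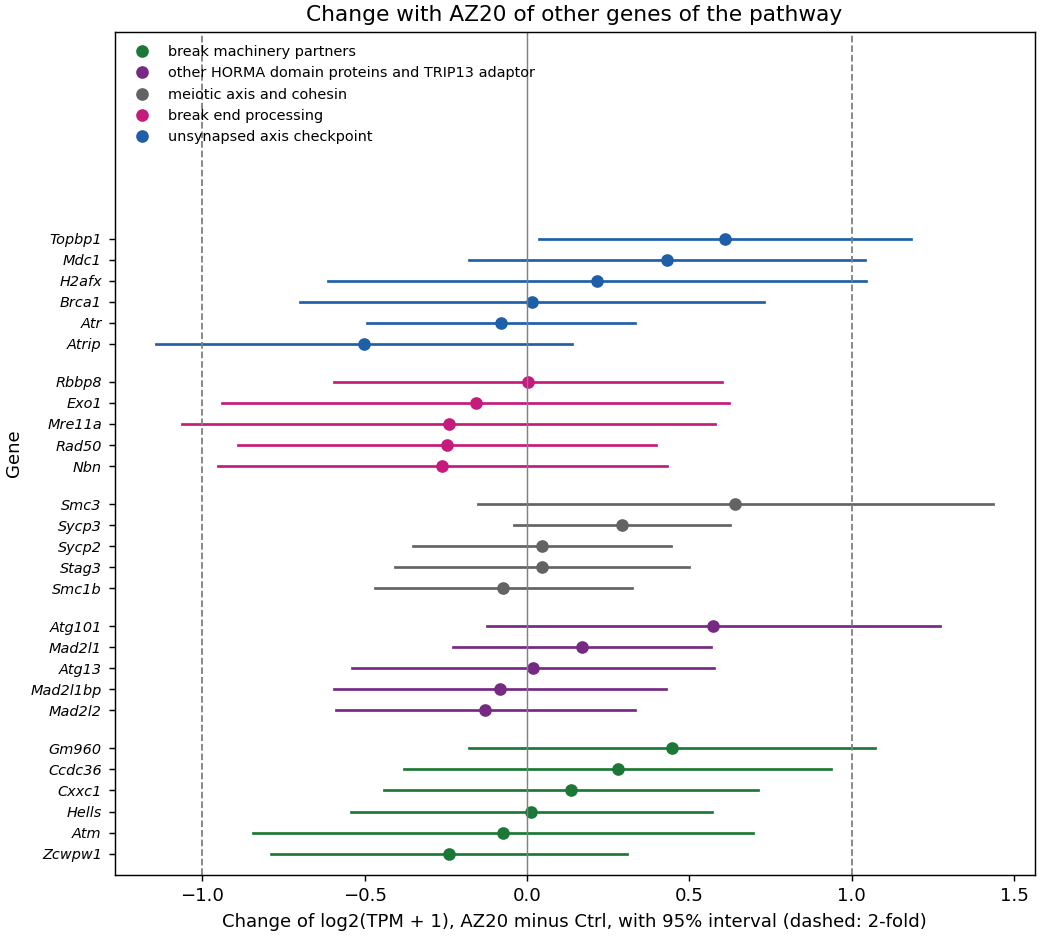
Change with AZ20 (AZ20 minus Ctrl) on the log2(TPM + 1) scale, with 95% limma intervals, of the 27 tested genes of the 5 pathway lists, coloured by list. The interval of *Topbp1* is the one interval that does not include 0. Of the 27 intervals, 19 lie within the dashed lines at 2-fold, as do 63.0% of those of all genes tested.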

How the data were processed

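RNA was sequenced with paired reads of 150 bp from 4 libraries, 2 for each group. Per the labels and the methods of the study, Trimmomatic 0.39 was used by the authors to trim the reads, STAR 2.5.4b to align them to GRCm38 (mm10), with unique alignments kept, and featureCounts 2.0.1 to count them on UCSC refGene genes. The authors deposited TPM computed from these counts, 1 column for each library. GENCODE gave a position for 21777 of the 23420 symbols, and RefSeq for 211 more by symbol and 1305 by synonym. Blank lines, 92 in all, were dropped.

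Log2(TPM + 1) of the 10316 genes with a mean above 1 TPM in either group was fitted with an intensity trend (limma 3.58.1, R 4.3.3), and p-values were adjusted over all of them (Benjamini-Hochberg). TPM is not a count, so limma took the place of the DESeq2 test named in the methods, and on this scale changes of low genes are understated. Reads were recovered from the TPM as the smallest whole numbers that give a whole gene length in every library. They came out whole, within 0.01 read, for all 16857 genes above 0. For *Mei1*, *Mei4* and *Trip13* the length found was not among the annotated lengths, so a common factor in their reads cannot be checked. Intervals and the limit of 3 reads for a count of 0 cover counting error only.

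Same-numbered libraries were taken to come from the same mouse, which the sample titles do not state. Their deviations from the group means correlated weakly (0.23). The fit had no term for the mouse, which was added as a replicate block in an alternative. The members, lists, markers and motifs were chosen with earlier results of these data known. By rule, the genes named were the members and the highest and lowest change of each list. Any listed gene called or with an unadjusted p under 0.05 was added, as were the 3 nearest to the member with the largest change. Genes given by level only, such as *Sycp3*, *Hells* and *Atm*, were named outside this rule. The tests were tested on simulated data. Other values came from Python 3.11.15 with numpy 2.4.6, pandas 2.3.3 and scipy 1.17.1.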

Additional observations from a re-analysis of the deposited data

How the results depend on the processing

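Under 14 alternatives (pseudocounts of 0.1 and 0.01, no filter, a filter at 5 TPM, quantile normalization, a common total without X and Y, the replicate block, no trend, voom on recovered reads with and without the filter, and leaving out each library), 0 members and 0 listed genes were called. The changes of *Hormad1* (0.03 to 0.38) and *Hormad2* (0.05 to 0.42) stayed above 0 and that of *Trip13* (-0.38 to -0.13) below 0. *Spo11* changed sign with quantile normalization (-0.012) and, when single libraries were left out, ran from -0.093 (without AZ20 replicate 2) through -0.0068 (without Ctrl replicate 1) to 0.16. *Rec114* then ran from -0.38 to 0.25, with 0.018 without Ctrl replicate 2 and 0.25 without AZ20 replicate 2. The cause was not tested. Quantile normalization moved the median change of all genes from 0.07 to -0.07. The interval of *Rec114* reached 2-fold under 4 alternatives, that of *Hormad2* under 3, and those of *Hormad1* and *Trip13* under 1 each.

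Over all genes, 240 were called (235 higher, 5 lower). The replicate block gave 447 (424 higher, 23 lower) and changed no call of a member. No filter gave 1 lower call and voom with the filter 1, while voom without it, added after seeing the data, gave 316 calls (310 higher, 6 lower). Leaving out a library gave 0 to 185 calls (0 to 184 higher, 0 to 1 lower), with 0 without AZ20 replicate 1 and 0 without AZ20 replicate 2. With 1 library left in a group, it is assumed to vary like the others. *Mei1* rests on 36 reads or fewer in a library and *Mei4* on 2 or fewer.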

Other observations

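The low levels of *Mei1* and *Mei4* stood beside those of other genes of early prophase, which were named after their values were seen. *Stra8*, which starts the meiotic programme, was at 0 TPM in all 4 libraries. *Prdm9*, which places breaks, lay between 0.0251 and 0.315 TPM, and *Dmc1*, the meiotic strand-exchange protein, between 0 and 0.834 TPM. The 4 measured markers of leptotene and preleptotene cells summed to 1.03 and 1.45 TPM in Ctrl and to 1.36 and 2.14 TPM in AZ20. *Rec8*, a meiotic cohesin subunit, was at 0.633 TPM in Ctrl replicate 2 and at 0 in the other libraries. Other listed genes of break formation, axes and cohesin ranged widely. *Hells*, the chromatin remodeller that works with PRDM9, lay between 55.6 and 81.8 TPM and *Atm* between 1.299 and 2.104 TPM. *Sycp3* lay between 2061 and 2924 TPM, *Smc1b* between 201 and 240.1 TPM, *Smc3* between 2.94 and 7.67 TPM and *Rad21l* between 0.157 and 0.965 TPM. None of these values separates RNA made in pachytene from RNA kept from earlier stages.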
